A study of Drosophila melanogaster with 4 samples.

Results

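The left arm of the second chromosome of Drosophila melanogaster, 2L, was examined for acetylation of histone H4 at lysine 8 (H4K8ac) in nuclei of adult heads. The regions described were the enriched regions, called clusters here, that the authors listed on 2L with an end at or before base 21000000. Rows marked as depletion were left out, and none of them lay on 2L. The limit leaves out the last 2011544 bases of the 23011544 bases of the arm sequence, next to the centromere. Replicate 1 had 1650 such clusters of 8148 in all (20.3%), replicate 2 had 1608 of 8140 (19.8%), and the authors' combined replicate set had 2014 of 10650 (18.9%). The flies were wild-type Oregon-R mixed adults, and 2 ChIP libraries and 2 input libraries were made by chromatin immunoprecipitation and sequencing (ChIP-seq). Whether the replicates are separate collections of flies is not stated in the labels, and p-values or SDs may then measure technical spread alone. The flies were raised in population cages and their heads collected in bulk with sieves, so each library averages over the cell types of many heads. Fewer cells carrying the mark and less of the mark per cell cannot be told apart in such material.

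Acetyl groups on the tail of histone H4 neutralise the positive charge of its lysines and are bound by proteins with bromodomains. They are added by histone acetyltransferases, removed by histone deacetylases, and are found at promoters and over the bodies of active genes. Heterochromatin, the compacted chromatin around the centromeres, carries little of them. On 2L, base 1 lies at the telomere and the numbering runs towards the centromere. No genome sequence and no annotation of FlyBase release 5, whose coordinates the lists use per the file headers, was used here, so the regions are given by position and the genes under them were not analysed here.

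Acetylated clusters took up a sizeable share of 2L and ranged from short peaks to long domains. Clusters covered 6.10 Mb (29.0%) in replicate 1 and 5.85 Mb (27.9%) in replicate 2, a mean of 28.4% ± 0.843 (SD, n = 2). There were 78.6 clusters per Mb in replicate 1 and 76.6 in replicate 2. The median length was 2219 bp in replicate 1 and 2148.5 bp in replicate 2, while the longest cluster measured 59.0 kb and 42.5 kb. The shortest measured 1301 and 1302 bp. A small part of the clusters held much of the acetylated sequence: the 314 longest of replicate 1 (19.0%) and the 300 longest of replicate 2 (18.7%) made up 50% of the clustered bases, and all of these measured at least 4952 and 4850 bp. Clusters of at least 10 kb numbered 90 and 93 and held 25.4% and 26.0% of the clustered bases.

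The score that the authors gave each cluster was taken to be the log2 of ChIP over input. Raising 2 to the score gave a constant times a ratio of whole numbers for 100% of the clusters of each replicate on 2L. In the combined set it did so for 2009 of 2014. Base e or base 10 did so for at most 1.21%. The check bears on the base and does not show that the ratio is ChIP over input. On this reading, enrichment over input was modest. The median score was 0.64 in replicate 1 and 0.62 in replicate 2, which is 1.56-fold and 1.54-fold. The highest was 1.21 in replicate 1 and 1.24 in replicate 2, both for the same region. The lowest scores were 0.20 in replicate 1, at 2L 11808636 to 11810067, and 0.12 in replicate 2, at 2L 13382290 to 13383929. Both of these weakest clusters were under 2 kb and had no counterpart in the other replicate. The second lowest of each list, at 0.24 and 0.32, did have a counterpart. So did 57.2% and 64.5% of all clusters under 2 kb in replicates 1 and 2. Read totals are not part of the lists, so the depth is unknown and single scores carry no error.

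**Figure D1:**
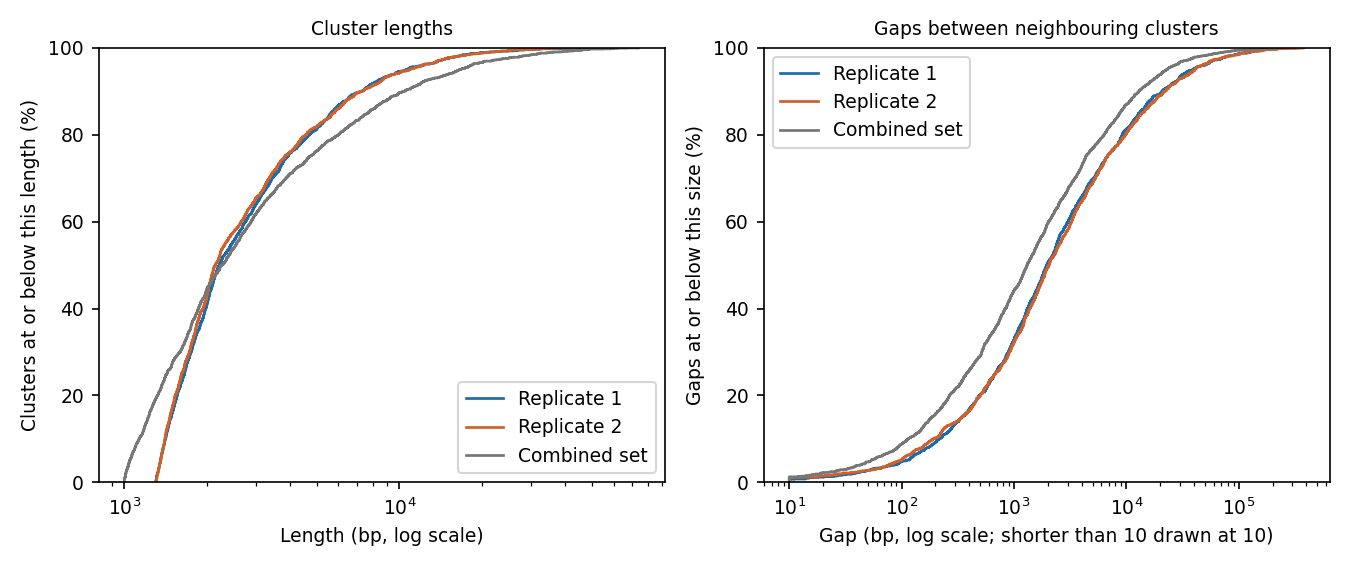
Cumulative share of the clusters of 2L by length (left) and of the gaps between neighbouring clusters by size (right), both on log axes, for each replicate and the combined set. The curves of the replicates nearly coincide, with median lengths of 2219 and 2148.5 bp and median gaps of 1957 and 2047 bp.

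Median score was higher in each longer length class, in both replicates. For replicate 1, median scores were 0.55 over 676 clusters under 2 kb and 0.95 over the 18 that reached 20 kb. For replicate 2 they were 0.54 over 690 clusters and 0.92 over 20. The lowest score among clusters this long was 0.80 (replicate 1) and 0.79 (replicate 2). Short clusters could still score high, up to 1.13 and 1.10 under 2 kb. Spearman's rho of length and score was 0.708 over the clusters of replicate 1 and 0.719 over those of replicate 2. The clusters of a list share 1 library and 1 input and are not independent, so rho is a description.

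**Figure D2:**
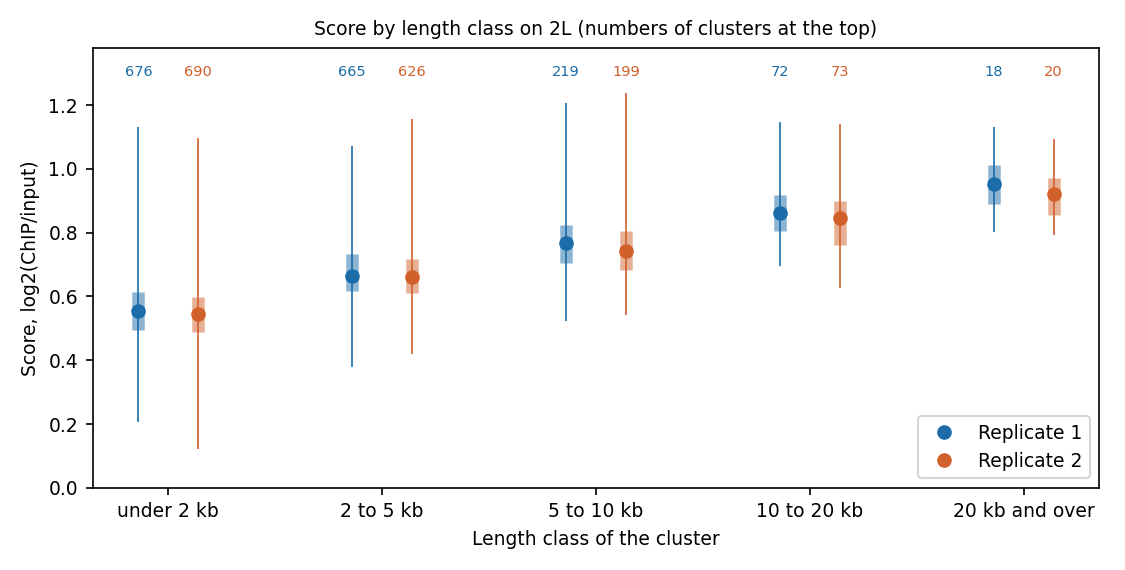
Score, log2(ChIP/input), of the 2L clusters by length class in each replicate; points are medians, thick bars quartiles, thin lines the lowest and highest score, and the numbers at the top count clusters. The median climbs from 0.55 and 0.54 under 2 kb to 0.95 and 0.92 at 20 kb and over.

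Clusters sat close together in groups separated by long empty stretches. The median gap between neighbours was 1957 bp in replicate 1 and 2047 bp in replicate 2. Gaps under 1 kb made up 32.8% and 32.0% of all gaps, but only 1.57% and 1.41% of the bases between clusters. Long gaps, 10 kb or more, numbered 310 in the first replicate and 318 in the other. They were 18.8% and 19.8% of the gaps and held 79.6% and 80.8% of those bases. Most of the sequence outside clusters thus lay in a small number of long gaps. Long clusters had near neighbours. For clusters of 10 to 20 kb, the median distance to the nearest cluster was 401 and 459 bp in replicates 1 and 2. It was 288.5 and 649.5 bp for those of 20 kb and over, and 1261.5 and 1322 bp for those under 2 kb. Where a stretch was called in pieces, its parts count as neighbours here. A distance of 10 kb or more to the nearest cluster was seen for 58 and 62 of the clusters under 2 kb and for 1 and 0 of those of 10 to 20 kb.

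Joining clusters less than 5 kb apart gave 502 groups in replicate 1 and 503 in replicate 2. The longest group matched between the replicates ran over 183.3 kb at 2L 1751612 to 1934953, with 25 clusters covering 84.3% of it in replicate 1, where it reached 217.0 kb, and 27 clusters covering 80.4% in replicate 2. Next came 155.5 kb at 2L 19189992 to 19345470, made of 24 clusters in each replicate. It was followed by 150.8 kb at 2L 14436188 to 14587009, with 29 clusters in replicate 1 and 20 in replicate 2. Each of these 3 groups was covered to at least 79.3% in both replicates. Single clusters without a neighbour within 5 kb made up 42.6% and 41.7% of the groups.

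Just over 50% of the clusters of each replicate were matched with a cluster of the other. A domain was called matched when a cluster of each replicate overlapped the other by at least 50% of both lengths, which gave 875 pairs. These were 53.0% of the replicate 1 clusters and 54.4% of the replicate 2 clusters, against 52.5% in each list over all sequences, so the share on 2L was near that of the genome. The starts of matched clusters differed by a median of 258 bp and the ends by 231 bp, with 65.9% of starts and 67.9% of ends within 500 bp. The overlap required of a pair limits how far its edges can differ. Both clusters of a pair were at least 10 kb long in 55 pairs. The 10 pairs with the longest shared stretch and the 10 with the highest lower score are named, and 4 pairs are on both lists.

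The longest matched domain was 2L 13060544 to 13102586. It measured 42.0 kb with a score of 1.04 in replicate 1 and 42.5 kb with a score of 1.09 in replicate 2. Its mean score of 1.07 ± 0.04 (SD, n = 2) was the sixth by the lower score of the pair, so it was long and high at once. In the 50 kb on either side of it, clusters covered 65.1% of the bases in replicate 1 and 65.8% in replicate 2.

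The domain at 2L 1884636 to 1921901 followed, with 38.1 kb in replicate 1 and 37.3 kb in replicate 2. Its scores were 1.00 in replicate 1 and 1.01 in replicate 2, and it lay inside the longest group described above. The replicates thus differed little in both its length and its score.

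The next domains show how the same acetylated stretch could be called whole in a library and in pieces in the other. At 2L 4229395 to 4262585, 33.2 kb were shared, but the replicate 1 cluster ran on to 51.9 kb, with scores of 0.98 and 0.91. Replicate 2 covered 99.5% of this replicate 1 cluster with 2 clusters. At 2L 7901515 to 7932609, 31.1 kb were shared within the longest replicate 1 cluster of the arm, 59.0 kb at a score of 1.02. Replicate 2 covered 97.6% of it with 4 clusters, of which the matched one scored 0.89. In the combined set this domain was 1 cluster of 74.3 kb. On 2L, 233 replicate 1 clusters touched several replicate 2 clusters, and 218 replicate 2 clusters touched several of replicate 1.

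The other long matched domains were of 23 to 32 kb and had scores near 1. The domain at 2L 4736243 to 4768016 shared 31.8 kb, with scores of 1.00 in replicate 1 and 0.93 in replicate 2. At 2L 6181442 to 6208168, 26.7 kb were shared with scores of 1.03 and 0.93, and at 2L 7499389 to 7525330, 25.9 kb with scores of 1.08 and 1.01. At 2L 2888842 to 2914576, 25.7 kb were shared, and here replicate 2 was the higher, with 0.95 in replicate 1 and 1.02 in replicate 2. The domain at 2L 9657700 to 9682407 shared 24.7 kb and reached 1.13 and 1.08, the highest mean score among the 10 longest. The last of the 10, 2L 4290342 to 4313793, shared 23.5 kb with scores of 0.95 and 0.88, and the next pair in the order, outside the 10, shared 21.4 kb. Replicate 1 had the higher score in 7 of the 10 longest pairs, and replicate 2 in those at 13060544, 1884636 and 2888842. Over the 734 pairs of clusters on 2L that overlapped one to one, replicate 1 was higher in 55.6%. Over the 10 longest matched pairs the median of the lower score was 0.94, against 0.62 over all 875 matched pairs.

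**Figure D3:**
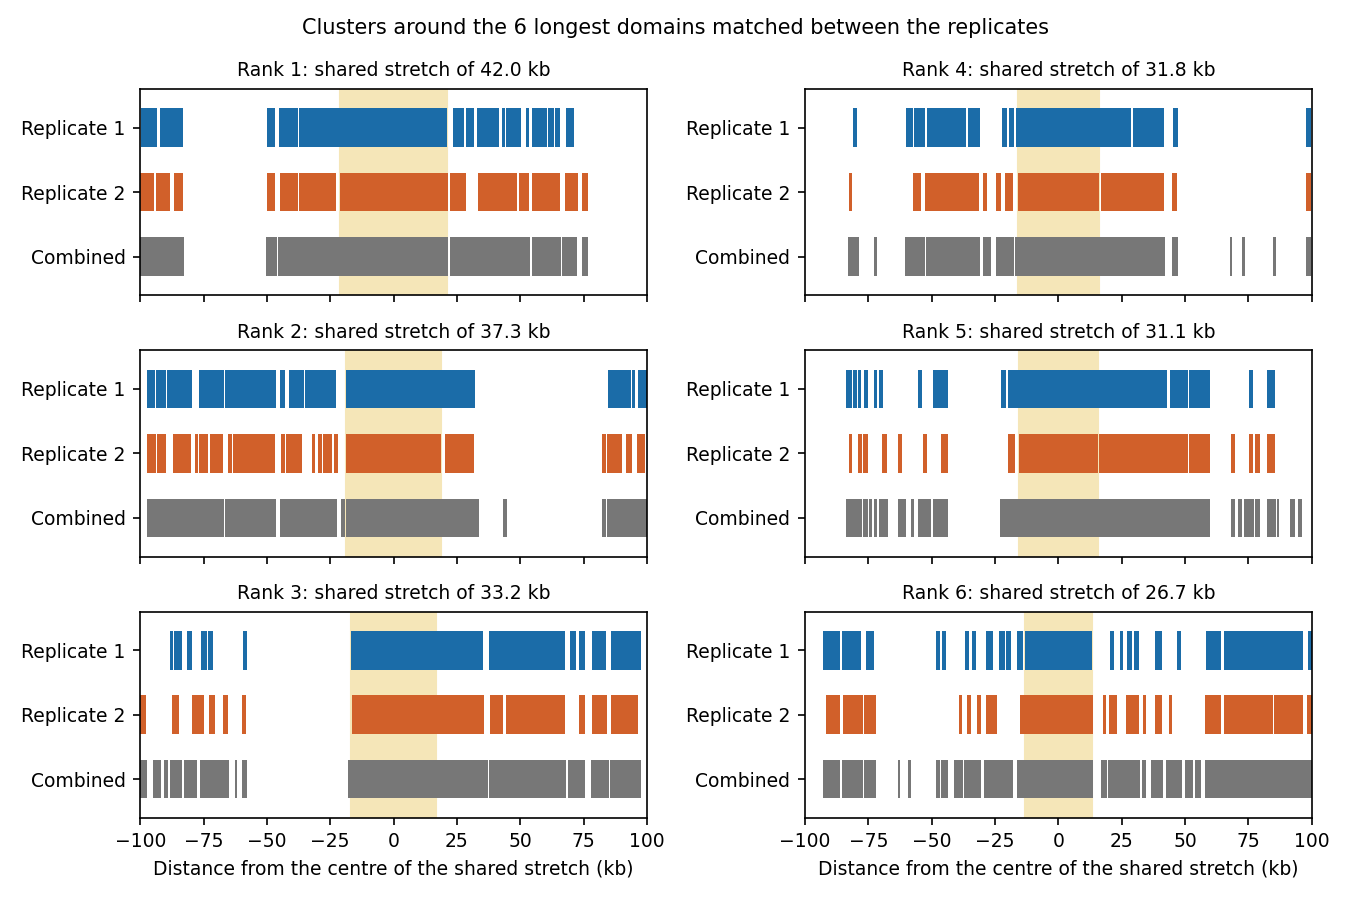
Clusters of replicate 1 (blue), replicate 2 (orange) and the combined set (grey) within 100 kb of the centre of the 6 longest matched domains, each bar drawn from a cluster's start to its end; shading marks the shared stretch. Domains of rank 3 and rank 5, with shared stretches of 33.2 and 31.1 kb, end inside a longer replicate 1 cluster and go on as further clusters in replicate 2.

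The highest-scoring matched domains were of very unequal length, and 6 of the 10 lay in the first 7 Mb from the telomere. These 7 Mb held 525 of the 1650 clusters of replicate 1 and 541 of the 1608 of replicate 2. Whether high domains prefer this part was not tested. The highest was 2L 2747528 to 2753262, where 5735 bp were shared. Its score of 1.21 (2.31-fold) in replicate 1 and 1.24 (2.36-fold) in replicate 2 was the highest of either replicate on 2L. It was followed by 2L 836172 to 849798, with 13.6 kb shared and scores of 1.15 in replicate 1 and 1.14 in replicate 2. The third was 2L 4333795 to 4342575, with 8.78 kb shared and scores of 1.14 in both replicates. In these 3 domains the replicates differed by less than 0.05 on the log2 scale.

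The fourth stood apart by its size. At 2L 15670558 to 15672107 the clusters measured 1805 bp in replicate 1 and 1550 bp in replicate 2, and scored 1.13 and 1.10. The remaining high domains that are not also among the longest were 2L 1084654 to 1102467, with scores of 1.08 and 1.03, and 2L 480857 to 489541, with 1.02 and 1.03. The domains at 9657700, 13060544, 7499389 and 1884636 completed the 10. The next pair in the order had a lower score of 0.99. The 10 highest pairs shared a median of 15720.5 bp, against 2221 bp over all pairs.

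The stretch 2L 4229282 to 4343481 held 3 of these 16 domains, at 4229395, 4290342 and 4333795. Beyond it, 2L 4457007 to 4669374 was free of clusters of both replicates for 212.4 kb, and the domain at 4736243 followed. The part of the arm from this stretch to the domain at 4736243 therefore combined some of the longest domains with 1 of the 5 longest gaps.

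Along the arm, dense and empty stretches alternated over distances of 1 or a few windows of 100 kb. Across the 210 windows the mean coverage of the replicates had a median of 25.8%, quartiles of 10.4% and 44.0%, and a maximum of 84.5%. In both replicates, 56 windows (26.7%) were covered to at least 40%, called dense here, against 26.5% of the windows of 2L, 2R, 3L and 3R together. Coverage was under 10% in both replicates in 45 windows (21.4%), against 20.8%. Of these 45, 12 windows (5.71% of the 210) held no cluster of either replicate, against 3.96%. The shares of dense and of thinly covered windows were thus near those of the large autosomal arms as a whole.

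The dense windows held much of the mark. Clusters centred in them made up 54.2% of the clustered bases of replicate 1 and 54.6% of those of replicate 2. They were 42.1% of all clusters of replicate 1 and 42.4% of those of replicate 2. They included 66 of the 90 and 71 of the 93 clusters of at least 10 kb. On average 12.4 and 12.2 clusters had their centre in a dense window. Their clusters were also longer and scored higher than those in windows under 10%: the median length was 2816 against 1660.5 bp in replicate 1 and 2671.5 against 1726 bp in replicate 2. Median scores were 0.67 against 0.55 in replicate 1 and 0.66 against 0.53 in replicate 2. Windows were classed by coverage, so the share of bases, the number of long clusters and the difference in length follow in part from the choice. Score rose with length, so the same limit holds for the scores. No cluster of at least 10 kb was centred in a window under 10%. This is nearly fixed by the definitions, as a cluster of 10 kb inside a window of 100 kb covers 10% of it.

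Coverage was greatest in 2L 4700001 to 4800000, where clusters took up 83.0% of replicate 1 and 86.1% of replicate 2. Its neighbour 2L 4600001 to 4700000 was covered to 8.45% and 5.48%, a step of 77.6 percentage points in the mean and the largest between neighbours on the arm. On its other side, 2L 4800001 to 4900000 was covered to 16.1% and 19.8%. The other 4 most covered windows were 2L 19900001 to 20000000 with 80.7% and 79.4%, 2L 1800001 to 1900000 with 84.4% and 74.6%, 2L 14500001 to 14600000 with 77.7% and 80.8%, and 2L 19200001 to 19300000 with 82.4% and 75.4% in replicates 1 and 2.

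Dense windows seldom formed long runs. They fell into 33 runs, of which 18 were single windows, and the longest had 4 windows. Of the 6 runs with at least 3 windows, those of 400 kb were 2L 1700001 to 2100000, at 63.1% and 54.1% in replicates 1 and 2, and 2L 12800001 to 13200000, at 52.8% and 54.7%. Those of 300 kb began at 4000001, 9100001, 14000001 and 14400001, and the last of them, ending at 14700000, was the densest, at 65.9% and 73.3%. Between neighbouring windows the median step in coverage was 15.6 percentage points, and a dense window bordered directly on one under 10% at 11 of 209 boundaries.

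Coverage of neighbouring windows was weakly related. Pearson's r between windows 100 kb apart was 0.315 in replicate 1 and 0.289 in replicate 2, over 209 pairs, and some clusters reach across a border. At 200 kb it was 0.002 and -0.019, and at 1000 kb it was 0.127 and 0.122. These values describe windows of 1 library each, which are not independent.

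**Figure D4:**
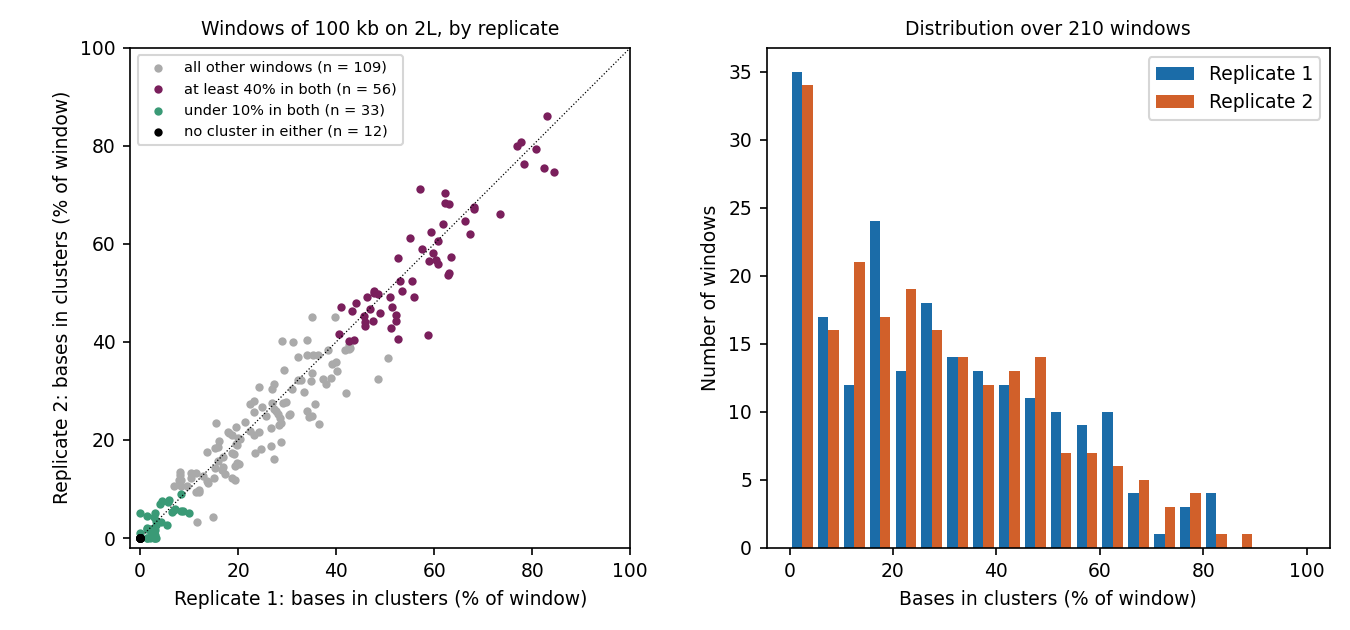
Share of bases in clusters for the 210 windows of 100 kb on 2L: replicate 1 against replicate 2 (left, 1 point a window, dotted line of equality) and the number of windows by coverage (right). Windows lie along the line of equality, with 56 covered to at least 40% in both replicates and 12 without a cluster in either.

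Windows under 10% in both replicates fell into 27 runs, 3 of which had at least 3 windows. The longest was 2L 5300001 to 5700000, 400 kb at 1.47% in replicate 1 and 2.34% in replicate 2. The others were 2L 10200001 to 10500000, at 0.664% and 0.987%, and 2L 15200001 to 15500000, at 1.48% and 0.222%. Of the 12 windows without a cluster, the first 10 from the telomere began at 600001, 4500001, 5400001, 5500001, 7300001, 7700001, 10200001, 11300001, 11400001 and 12600001. The combined set covered no base of 8 of the 12 either. Among windows with a cluster, the least covered was 2L 10400001 to 10500000, at 0 in replicate 1 and 1.10% in replicate 2. The next 4, starting at 15400001, 16100001, 3600001 and 9900001, had clusters in replicate 1 only, covering 1.33% to 2.78%.

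The longest gap without a cluster of either replicate was 347.2 kb, at 2L 5308442 to 5655649. The combined set placed 4 short clusters inside it, none longer than 1918 bp or above a score of 0.44. The next gap, 2L 11273051 to 11525832, was 252.8 kb long and held 2 combined clusters. In the gap of 226.0 kb at 2L 15264338 to 15490306 and that of 212.4 kb at 2L 4457007 to 4669374, no combined cluster lay wholly inside, though clusters at the edges reached in over 0.0531% and 0.139% of the gap. The fifth, 203.9 kb at 2L 12543459 to 12747345, held 4. Gaps of this kind of at least 50 kb numbered 55 and made up 26.8% of the 21 Mb, and 19 of them were at least 100 kb.

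The clusters of each replicate nearest to these 5 gaps were mostly short. The nearest replicate 1 cluster on the left measured 2137 bp at the first gap, 1425 bp at the second, 1472 bp at the third and 1382 bp at the fourth. On the left of the third gap, the nearest replicate 2 cluster measured 9524 bp, the longest of these nearest clusters at the first 4 gaps. It did not border the gap, as it ended at 15200667 and the gap began at 15264338. At the fifth gap the left edge alone was abrupt. There the nearest cluster was of 13.3 kb with a score of 0.86 in replicate 1 and of 13.5 kb with a score of 0.91 in replicate 2. Their ends lay at 12543458 and 12543400. On the right of this gap, the nearest clusters measured 1537 bp in replicate 1 and 1855 bp in replicate 2.

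At the scale of 1 Mb, coverage ranged from 14.5% ± 1.01 at 2L 5000001 to 6000000 to 45.4% ± 3.94 at 2L 1000001 to 2000000 (SD, n = 2). In the first of these, 13.8% of the bases were covered in replicate 1 and 15.2% in replicate 2, and neither had a cluster of at least 10 kb. In the other, 48.2% and 42.6% were covered, with 9 and 7 such clusters. The windows 2L 14000001 to 15000000, at 42.4% ± 0.317, and 2L 15000001 to 16000000, at 14.6% ± 3.07, were neighbours. The arm showed no steady trend towards the centromere: from the telomere, the 3 stretches of 7 Mb were covered to 29.2% ± 1.07, 26.5% ± 0.349 and 29.7% ± 1.11 (SD, n = 2). The stretch in the middle had the lowest value in both replicates, and the other two overlapped. The first cluster began at base 58172 in replicate 1 and at 67112 in replicate 2, and the combined set began at 42275.

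At the other end, the limit cut through acetylated chromatin. The last cluster inside it was 2L 20981061 to 20992238 in replicate 1, with a score of 0.92, and 2L 20968023 to 20975262 in replicate 2, with 0.80. The first outside was 2L 20992472 to 21020896 in replicate 1, of 28.4 kb and a score of 0.83, and 2L 20980916 to 21003099 in replicate 2, of 22.2 kb and a score of 0.88. Each of these crossed the limit. With them, the last window of 100 kb would have been covered to 59.8% in replicate 1 and 64.5% in replicate 2, and the 21 Mb to 29.1% and 27.9%. In the combined set the last cluster inside was 2L 20967882 to 20976605 and the first outside was 2L 20980731 to 21020880. Beyond the limit lay 19 clusters of replicate 1, 24 of replicate 2 and 49 of the combined set.

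The replicates shared most of the acetylated bases of 2L. They shared 4.69 Mb, which was 76.9% of the clustered bases of replicate 1 and 80.2% of those of replicate 2, with a Jaccard index of 0.646. Of the replicate 1 clusters, 1292 (78.3%, exact 95% Clopper-Pearson interval 76.2 to 80.3) had at least 1 bp in common with replicate 2, against 77.7% over all sequences. In the other direction 1311 did so (81.5%, interval 79.5 to 83.4), against 80.8% over all sequences. The intervals cover counting error only, and neighbouring clusters are not independent. The values on 2L were thus close to those of the genome. Clusters without a counterpart held 10.2% of the clustered bases of replicate 1 and 8.79% of those of replicate 2, so the rest of the unshared bases lay in clusters that were found again.

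Short clusters were found again less often than longer ones by count. Of the clusters under 2 kb, 57.2% of replicate 1 and 64.5% of replicate 2 had a counterpart, and of those of 2 to 5 kb, 89.6% and 91.9%. A longer cluster also has more bases with which to meet another. The longest cluster without a counterpart measured 4077 bp in replicate 1 and 5630 bp in replicate 2. No cluster of at least 10 kb was less than 51.4% covered by the other replicate, and 63 of 90 in replicate 1 and 77 of 93 in replicate 2 were covered to at least 90%. In windows under 10%, 43.8% of replicate 1 clusters and 47.4% of replicate 2 clusters were found again, against 86.6% and 86.8% in dense windows. The windows were classed by the coverage of both replicates, so this difference follows in part from the choice.

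Scores of the same domains were alike but not equal. Over 734 clusters that overlapped one to one, Spearman's rho between the replicates was 0.627 and Pearson's r was 0.705. Replicate 1 was higher in 408 of them (55.6%), by a median of 0.01 over all pairs, and the differences had an SD of 0.10. A difference of 0.1 on the log2 scale between 2 domains was therefore no larger than that between replicates of the same domain.

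Windows gave the same picture. Per window, the median difference was 2.94 percentage points, and Pearson's r over the 210 windows was 0.975. In 12 windows they differed by over 10 points, with replicate 1 higher in 9. The largest difference was at 2L 2000001 to 2100000, with 58.6% in replicate 1 and 41.3% in replicate 2. No window was dense in one replicate and under 10% in the other.

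The combined set drew more of 2L together. It covered 44.8% of the 21 Mb with a median score of 0.44, and 208 of its clusters were at least 10 kb long. Of its clusters, 326 spanned several replicate 1 clusters, up to 10, and 333 spanned several of replicate 2, up to 9. Those found in both replicates, 819 (40.7%), had a median length of 5692 bp and held 76.7% of its bases, while 736 (36.5%) lay outside both replicate lists, where the median cluster measured 1316 bp and scored 0.40. This last group also held the 2 highest scores of the combined set on 2L, 3.34 (10.1-fold) at 2L 12940289 to 12941289 and 2.97 (7.85-fold) at 2L 2100463 to 2101463, each 1001 bp long. Of the 736, 355 were shorter than 1301 bp, the shortest length in the replicate lists. The combined set stands for the same libraries and is no independent support.

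Set beside the other large autosomal arms, 2L had about the same coverage, more clusters per Mb than 3L and a smaller share of its clustered bases in long clusters than 3L. The same 2011544 bases were left out at the centromere end of 2R, 3L and 3R. Coverage was 28.4% ± 0.843 on 2L, 29.8% ± 0.903 on 2R, 28.3% ± 0.371 on 3L and 29.5% ± 1.07 on 3R (SD, n = 2). The ratio of 2L to the mean of the other arms was 0.977 in replicate 1 and 0.973 in replicate 2, but 1.02 in the combined set, so whether it lay above or below 1 depended on the list. Clusters numbered 77.6 ± 1.41 per Mb on 2L and 69.6 ± 0.220 on 3L, with 76.7 ± 1.40 on 2R and 74.4 ± 0.956 on 3R (SD, n = 2). Clusters of at least 10 kb held 25.4% and 26.0% of the clustered bases of 2L in replicates 1 and 2, and 34.7% and 36.0% of those of 3L. On 2R the values were 31.5% and 25.6%, which span that of 2L, and on 3R 32.2% and 29.4%.

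Median scores differed by less than the replicates did, at 0.63 ± 0.01 on 2L, 0.64 ± 0.01 on 2R, 0.63 ± 0.01 on 3L and 0.64 ± 0.01 on 3R (SD, n = 2). Windows without a cluster made up 6.67% and 8.57% of 2L in replicates 1 and 2. On 2R they made up 2.62% and 4.19%, on 3L 4.89% and 4.44%, and on 3R 6.59% and 6.98%. In each replicate 2L had the largest share of empty windows, with 3R close to it. The smallest two-sided p that an exact sign test can give with 2 replicates is 0.5, so that test could not call any of these differences between arms, and they are given as values.

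**Figure D5:**
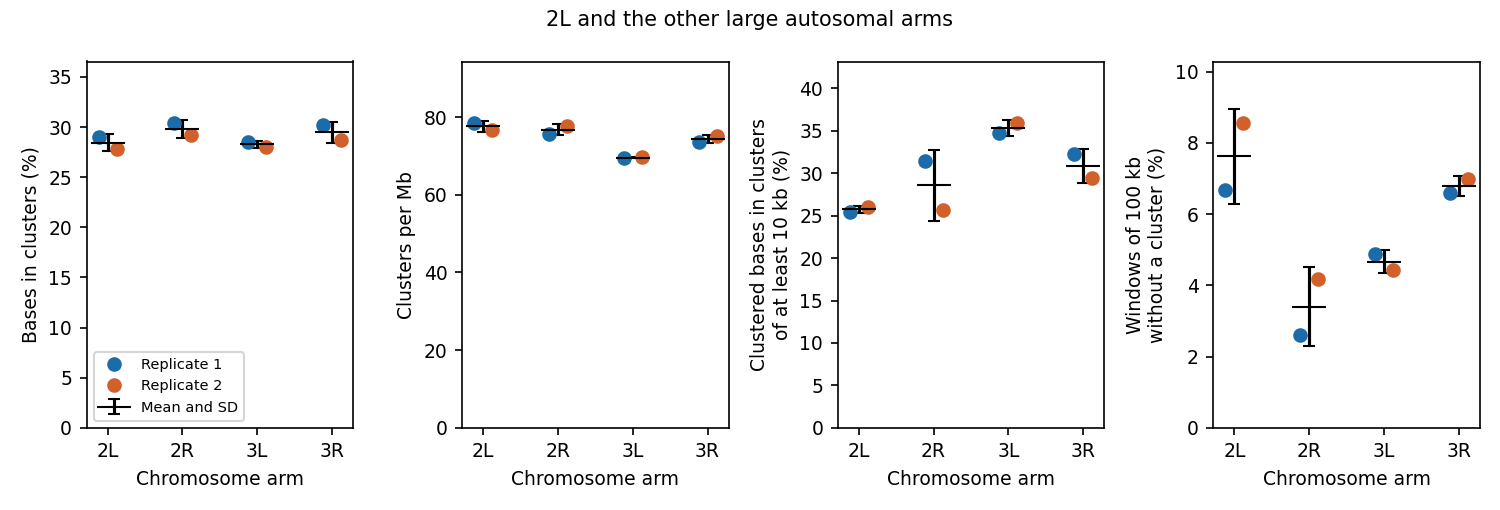
Coverage, clusters per Mb, share of clustered bases in clusters of at least 10 kb, and share of windows of 100 kb without a cluster, for 2L to 21 Mb and for 2R, 3L and 3R with the same length left out at the centromere end; points are replicates, bars the mean and SD of 2. Coverage lies between 27.9% and 30.4% on every arm, while the share held in long clusters is 25.4% and 26.0% on 2L and 34.7% and 36.0% on 3L.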

How the data were processed

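The authors deposited 1 list of enriched regions for each of the 2 ChIP libraries and 1 combined list, in FlyBase release 5 coordinates per the file headers. Each region has a start and an end in bp, and the deposited score was taken as a log2 value, after a check that 2 to its power is a constant times a whole-number ratio (relative tolerance 1e-13, denominator up to 50000). The submitters' processing notes list Bowtie 0.12.7. Which program called regions, at what threshold, and how the combined list arose, was not stated there, in the labels or in the file headers. The input libraries, each the control of 1 ChIP library per the labels, entered only through these lists, so no background was measured in them. No replicate cluster on 2L is shorter than 1301 bp, so values say nothing of shorter peaks.

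Coverage, overlap and gaps were computed with Python 3.11.15, numpy 2.4.6, pandas 2.3.3 and scipy 1.17.1, and the steps were tested on simulated data. Members were looked up in the whole arm of the other list. Named regions were the 10 longest and 10 highest matched domains, the 5 most covered windows, up to 10 empty ones, runs of at least 3 windows with ties kept, and the 5 longest gaps. The members and these rules were chosen with earlier results of these data known; the 5 least covered windows that hold a cluster were added after values were seen. Alternatives used scores in the upper 50%, a minimum length, merging, other windows, limits and overlaps, the combined set, and each replicate alone.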

Additional observations from a re-analysis of the deposited data

How the results depend on the processing

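Of 51 alternative values, 24 moved by less than the spread between the replicates (counts by at most 1.5 times). With 2 replicates, each always lies within their SD of the mean. Leaving out a replicate could thus never count as a move for coverage, score, length or the ratio. Those values, which are among the 24, say nothing of stability. No paired analysis was possible because the input libraries have no list here and the ChIP replicates are a single group. Leaving out a replicate gave coverage of 27.9% to 29.0%, 14 to 18 empty windows and 61 to 64 dense ones. With scores in the upper 50% of a list, coverage was 20.7%, 73.0% of clusters were found again, the median score was 0.72, the median length 3652.75 bp, 26 windows were empty, 28 were dense, and the ratio of 2L to the other arms was 0.938. With clusters of at least 2000 bp the values were 23.3% coverage, a median score of 0.70 and length of 3496.75 bp, 25 empty and 35 dense windows, and a ratio of 0.953. Merging clusters less than 500 bp apart gave a median length of 2462.5 bp. The combined set gave 44.8% coverage, a median score of 0.44 and length of 2262 bp, 114 dense windows and a ratio of 1.02. The whole arm was covered to 26.3%, and whole arms gave a ratio of 0.947. A reciprocal overlap of 50% left 53.8% of clusters found again. Windows of 50 kb gave 52 empty and 113 dense ones, windows of 200 kb gave 1 and 27, and a threshold of 50% left 32 dense windows. The total of windows changes with their size. The counts at 50 and 200 kb thus cannot be set directly against the 12 empty and 56 dense windows of 100 kb. Leaving out a replicate gave median scores of 0.62 to 0.64, median lengths of 2148.5 to 2219 bp and ratios of 0.973 to 0.977. The share found again has no value for the combined set or with a replicate left out. The cause of these shifts was not tested beyond the smaller or larger sets that each setting leaves. The lists hold no read counts, so depth limits could not be measured.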

Other observations

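A stretch of 50 kb, 2L 15660001 to 15710000, held most of the short, high-scoring clusters of 2L. The stretch, and the limits of 2.5 kb and 0.85 used to describe it, were chosen after the values were seen. Of the replicate 1 clusters of 2L under 2.5 kb that scored at least 0.85, 3 of 5 lay in it, and in replicate 2 all 4 of 4. Each replicate had 7 clusters there. The lowest score rounded to 0.73 in both, and the highest reached 1.13 in replicate 1 and 1.16 in replicate 2. Among clusters under 2.5 kb the median score was 0.89 inside and 0.58 elsewhere on 2L in replicate 1, and 0.87 inside and 0.57 elsewhere in replicate 2. The inside values follow in part from how the stretch was chosen.

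Some of these clusters appeared in a single replicate. In each replicate 4 of the 7 had a counterpart in the other. The highest cluster of each list without a counterpart on 2L was found there, at 2L 15667424 to 15668928 with a score of 1.06 in replicate 1 and at 2L 15705109 to 15707361 with 1.16 in replicate 2. The nearest clusters of the other replicate lay 1.63 kb and 3.67 kb away. Clusters covered 29.3% and 28.3% of the stretch in replicates 1 and 2, close to the 29.0% and 27.9% of 2L.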
